A study of Mus musculus with 4 samples.

Results

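Ribosome biogenesis genes of leukemia-initiating cells (LICs) were examined, a set of 38 genes given by name for nucleolar proteins, rRNA processing factors and RNA polymerase I components. All 38 were found by their NCBI gene number among the 27179 genes of the FPKM values, and all 38 passed the filter that left 13230 genes for testing. The LICs came from bone marrow of mice with acute myeloid leukemia (AML) driven by MLL-AF9, a fusion oncogene that was delivered by retrovirus to lineage-negative fetal liver cells before these were transplanted into lethally irradiated C57BL/6 mice. Their RNA was sequenced in 4 libraries, 2 from wild-type (WT) and 2 from CD274-/- (CD274-null) cells, on the strain C57BL/6, with a labelled age of 6 weeks. CD274, also called PD-L1, is a surface ligand that inhibits T cells. Both genotypes carried the oncogene, and the groups differ in the deletion of CD274. The sources used here do not say whether the libraries of a genotype came from separate mice, so the p-values measure the spread between these libraries, which may be technical.

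Ribosomes are built in the nucleolus. RNA polymerase I transcribes a long precursor rRNA there, small nucleolar ribonucleoproteins (snoRNPs) guide its chemical modification, a large processome cleaves the part that becomes the small subunit, and a further group of factors assembles the large subunit. The demand of dividing cells for ribosomes ties this pathway to growth, and MYC is a known activator of many of its genes. NPM1, one of the nucleolar proteins, is among the most frequently mutated genes of human AML.

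The recovered reads on genes summed to 11048767 and 9740855 for WT replicates 1 and 2 and to 8451702 and 9520926 for CD274-null replicates 1 and 2, the order in which values are given throughout. Cd274 itself did not separate the groups, with an FPKM of 2.80 and 0.945 in the libraries labelled WT and of 1.43 and 2.29 in those labelled CD274-null. A value per gene does not show which exons were read, so the directions below rest on the labels. Of the sort markers, Itgam (Mac-1) had an FPKM between 100 and 174. Kit was lower in WT replicate 1, at 6.59, than in the other 3 libraries, at 16.2 to 19.5. Of 10 genes of the sort and of the MLL-AF9 program, all tested, Mpo (myeloperoxidase) was the 1 candidate, with 444 and 403 in WT against 1427 and 925 in CD274-null. Of 10 markers of B and plasma cells 4 were tested and 3 were candidates, and the summed FPKM of the 10 was 31.0 and 59.3 in WT against 313 and 402 in CD274-null, while the sum over 7 erythroid markers was 55.7 in WT replicate 2 and at most 4.85 elsewhere. T cell markers summed to at most 3.31. The part of such RNA in the results below was not tested, and in bulk RNA fewer cells of a type and less RNA per cell cannot be told apart.

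All 38 genes were expressed, and most lay above the median of the tested genes. The mean FPKM over the 4 libraries ran from 9.54 to 189 with a median of 35.8, against 12.0 over all tested genes, and 3 genes lay above 100. Npm1, a histone chaperone and assembly factor that shuttles out of the nucleolus, was the highest, with an FPKM of 220 and 177 in WT against 211 and 149 in CD274-null. Mouse Npm1 has many processed pseudogenes, and reads shared with them could have been split by the counting, so its level is uncertain. Ncl (nucleolin), which binds the precursor rRNA, followed with 233 and 130 in WT and 106 to 153 in CD274-null, and Nop58 of the box C/D snoRNP was the third. The lowest were Utp20, a scaffold of the small subunit processome, and Ddx18, a DEAD-box helicase of large subunit assembly, with means of 9.54 and 11.7. The recovered reads ranged from 211 for Ddx18 to 22263 for Ncl per library.

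**Figure D1:**
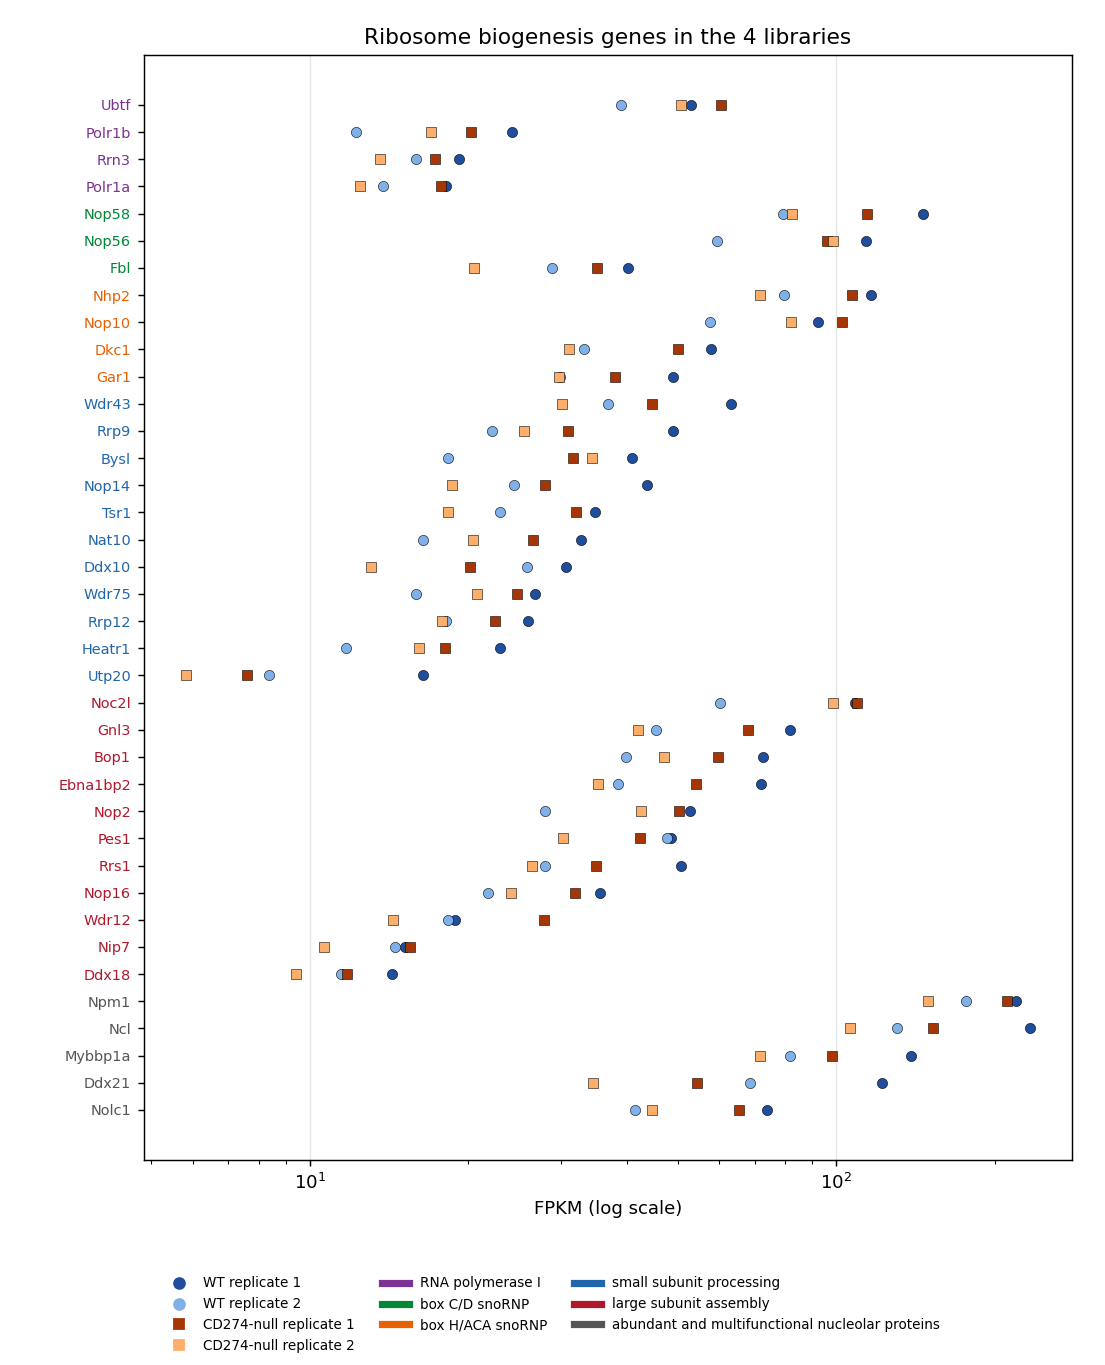
FPKM (log axis) of each of the 38 genes in the 4 libraries, with circles for WT and squares for CD274-null and gene names coloured by role. WT replicate 1 (dark blue) is the rightmost point for 33 genes, and the circles and squares of most genes interleave.

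The libraries of the same genotype differed from each other in these genes more than the genotypes did. In WT, replicate 1 was above replicate 2 for 38 of 38 genes, where 44.5% of all tested genes were, with a median difference of 0.78 on the log2(FPKM + 0.5) scale against -0.06 over all tested genes. In 26 of the 38 the difference was more than 1.5-fold, and 12.0% of the tested genes had a difference of that size in that direction. In CD274-null, replicate 1 was above replicate 2 for 36 of 38 genes, the share over all tested genes being 65.4%. There the median difference was 0.43 against 0.14, and 8 of the 38 passed 1.5-fold against 11.6% of the tested genes. Among tested genes whose mean FPKM was 5 or more, as it was for all 38, the shares above 1.5-fold were 10.9% in WT and 7.53% in CD274-null. WT replicate 1 held the highest value of the 4 libraries for 33 genes, against 23.9% of all tested genes. The lowest value lay in CD274-null replicate 2 for 23 genes and in WT replicate 2 for 15. Among the 13230 tested genes these libraries were lowest for 4667 and 3199. Summed over the 38 genes, the FPKM was 2476 and 1522 in WT against 2034 and 1518 in CD274-null. With 1 library on each side these differences carry no test, and genes of 1 library are not independent replicates.

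**Figure D2:**
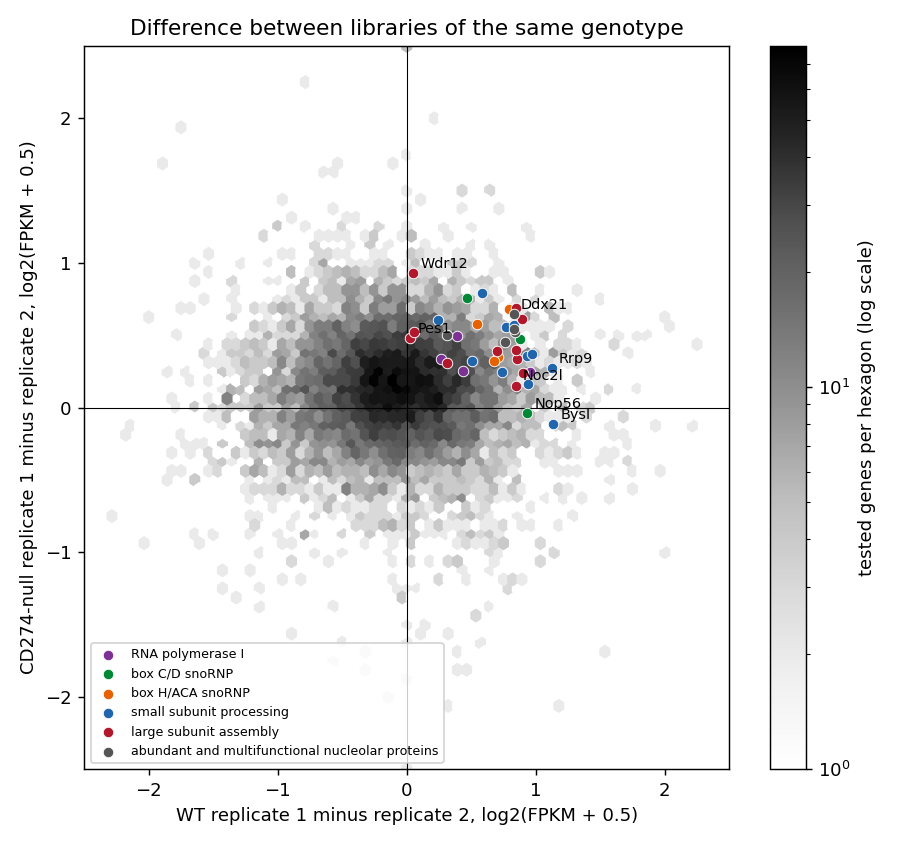
Replicate 1 minus replicate 2 on the log2(FPKM + 0.5) scale, for WT on the horizontal and CD274-null on the vertical axis, with the 13230 tested genes as grey hexagons (those within the axes) and the 38 genes as points coloured by role. All 38 points lie to the right of 0 and 36 lie above 0, with Nop56 and Bysl below.

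The size of the difference varied among the genes. Bysl, the mouse bystin gene, whose product acts in small subunit maturation, had 40.9 and 18.3 FPKM in WT, a ratio of 2.23, against 31.6 and 34.3 in CD274-null. Rrp9, a protein of the U3 snoRNP, had 48.9 and 22.2 in WT against 30.9 and 25.5 in CD274-null. In both genes the WT libraries thus stood farther apart than the CD274-null libraries. Wdr12 showed the opposite arrangement, with 18.9 and 18.3 in WT against 27.8 and 14.4 in CD274-null. Wdr12, Pes1 and Bop1 encode the PeBoW complex, which is required for large subunit maturation, and of these Bop1 differed between the WT libraries (72.5 and 39.9) by more than Pes1 (48.6 and 47.6) or Wdr12. Nip7, a factor of the same subunit, had 15.2 and 14.5 in WT. Bysl, Rrp9, Wdr12, Bop1 and Nip7 were chosen after their values were seen. Across the 38 genes, the WT and the CD274-null differences had a Pearson's r of -0.42, given as a description, since the genes share libraries. The library with more reads was the higher one in WT and the lower one in CD274-null. The GC content of the longest annotated transcript had a median of 49.3% in the 38 genes and of 49.8% in the 11435 tested genes that had a GC content. Over these 11435 genes, Spearman's rho with GC content was -0.02 for the WT difference, -0.22 for the CD274-null difference and 0.27 for the log2 fold change between genotypes. The part of depth, GC content or other cells in the differences was not tested.

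The comparison of genotypes asked whether ribosome biogenesis genes differed with the deletion of CD274. None of the 38 was a candidate by the cut-offs that the study states, p under 0.01 and more than 1.5-fold, where 3.63% of the tested genes were. Here p was taken from limma without adjustment, and the fold in either direction. At an unadjusted p under 0.05 from limma 2 of the 38 were found, Ddx21 and Ddx10, against 13.7% of the tested genes, and voom on recovered reads and limma without moderation also gave 0 candidates, while leaving out WT replicate 2 made Ddx21 a candidate. Benjamini-Hochberg adjusted p over all tested genes ran from 0.313 to 0.998 in the 38. By the fitted value 11 genes were higher and 27 lower in CD274-null, where 51.1% of the tested genes were higher, with a median log2 fold change of -0.15 against 0.01. This direction rested on single libraries. Without WT replicate 1, 27 genes were higher and the median was 0.15. Without CD274-null replicate 2, 25 were higher with a median of 0.12. Only 2 and 7 were higher without WT replicate 2 and without CD274-null replicate 1, with medians of -0.44 and -0.38. The medians over all tested genes in these fits were -0.016, 0.083, 0.048 and -0.058, in that order. With each library left out in turn, 10 genes kept their direction (Rrn3, Ubtf, Utp20, Wdr43, Nop14, Ddx10, Pes1, Ddx18, Ncl and Ddx21) and 28 changed it at least once. No share over all tested genes is at hand for this count, so nothing particular to the set is read from it. For 36 of the 38 genes the larger difference between libraries of the same genotype exceeded that between genotypes, and 66.2% of the tested genes behaved so. In 4 genes, Ddx21, Utp20, Ddx10 and Pes1, both CD274-null values lay below both WT values (21.8% of the tested genes), and in 0 of the 38 above them (25.6% of the tested genes).

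**Figure D3:**
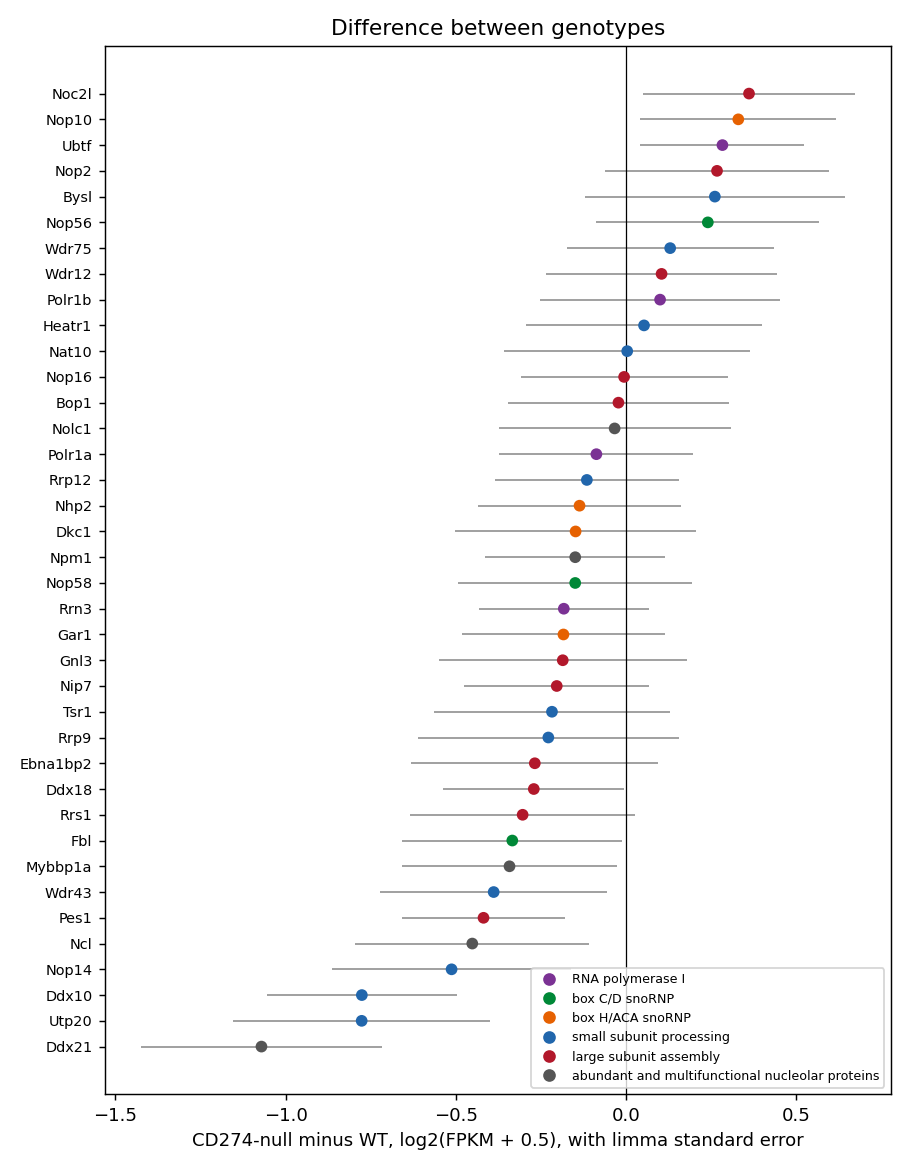
Log2 fold change of CD274-null against WT on the log2(FPKM + 0.5) scale for the 38 genes, ordered by size, with the standard error from limma as bars and colours for role. The values run from -1.07 for Ddx21 to 0.36 for Noc2l, and 27 points lie left of 0.

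The 5 abundant and multifunctional nucleolar proteins were all lower in CD274-null by their fitted value, and none passed the test. Without WT replicate 1, Npm1, Nolc1 and Mybbp1a were higher, at 0.0088, 0.38 and 0.038 on the log2 scale. Ddx21, a DEAD-box helicase that binds rDNA and snoRNAs and couples transcription with processing (chr10:62580247-62602298 of GRCm38), had FPKM values of 122 and 68.6 in WT against 54.3 and 34.5 in CD274-null, from 6701, 3312, 2277 and 1631 recovered reads. The groups did not overlap, and each genotype had its higher value in replicate 1. Its log2 fold change was -1.07 (standard error, SE, 0.35, unadjusted p = 0.0223, limma adjusted p = 0.313). Without WT replicate 2 it became a candidate, with a log2 fold change of -1.48, an unadjusted p of 0.00598 and an adjusted p of 0.177 from limma, and without WT replicate 1 the value was -0.66. Ncl (chr1:86344719-86359455) had 233 and 130 in WT against 153 and 106 in CD274-null, so that WT replicate 2 lay between the CD274-null libraries. Its log2 fold change was -0.45 (SE 0.34, limma adjusted p = 0.580), or -0.034 without WT replicate 1 and -0.87 without WT replicate 2. Mybbp1a, a repressor that binds RNA polymerase I and MYB, had 139 and 81.8 in WT against 98.4 and 71.8 in CD274-null, with overlapping groups. Nolc1, a chaperone of snoRNPs, had 73.9 and 41.4 in WT against 65.4 and 44.7 in CD274-null, where both CD274-null values fell within the WT range. Npm1 had a log2 fold change of -0.15 (SE 0.26).

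Of 11 small subunit processing factors 7 were lower and 4 higher by their fitted value, with a median log2 fold change of -0.22. Without WT replicate 1, 7 were higher with a median of 0.14, and without WT replicate 2 all 11 were lower with a median of -0.51. Utp20 (chr10:88746607-88826814) had an FPKM of 16.4 and 8.35 in WT against 7.58 and 5.81 in CD274-null. Its groups did not overlap, though WT replicate 2 lay much nearer the CD274-null libraries than to WT replicate 1, and the log2 fold change was -0.78 (SE 0.38, limma adjusted p = 0.417), or -0.31 without WT replicate 1 and -1.24 without WT replicate 2. Ddx10 (chr9:53098454-53248170), a helicase that releases a snoRNA from the precursor, had 30.7 and 25.9 in WT against 20.1 and 13.1 in CD274-null, again without overlap. The WT libraries stood closer together here than for most of the other genes, and the log2 fold change was -0.78 (SE 0.28, unadjusted p = 0.0307, limma adjusted p = 0.333), or -0.47 without CD274-null replicate 2. Nop14 had 43.8 and 24.4 in WT against 27.9 and 18.6 in CD274-null, and Wdr43 had 63.1 and 36.9 in WT against 44.7 and 30.2 in CD274-null. In both of these processome proteins WT replicate 2 was below CD274-null replicate 1. Heatr1, Wdr75, Nat10, Rrp9, Bysl, Tsr1 and Rrp12 had log2 fold changes between -0.23 and 0.26.

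The 11 factors of large subunit assembly were lower in 8 and higher in 3, with a median of -0.19. Without WT replicate 1, 8 were higher with a median of 0.18, and without WT replicate 2, 10 were lower with a median of -0.43. Pes1 (chr11:3963975-3980004) had an FPKM of 48.6 and 47.6 in WT against 42.4 and 30.3 in CD274-null. Both WT values were above both CD274-null values, and the difference between the CD274-null libraries was the larger spread, with a log2 fold change of -0.42 (SE 0.24, limma adjusted p = 0.476). It was -0.18 without CD274-null replicate 2 and -0.66 without CD274-null replicate 1. Noc2l (chr4:156234655-156247616), which chaperones pre-ribosomes and inhibits histone acetyltransferases, had 108 and 60.2 in WT against 110 and 98.6 in CD274-null. It was the gene of this set with the largest positive difference (log2 fold change 0.36, SE 0.31, limma adjusted p = 0.630), and the single low library was WT replicate 2. Without WT replicate 2 its log2 fold change was -0.06, and with GC correction it was 0.19. Ddx18 had 14.3 and 11.4 in WT against 11.8 and 9.42 in CD274-null, with overlapping groups.

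The core proteins of the snoRNPs did not separate the genotypes. Fbl (fibrillarin), the methyltransferase of box C/D particles, had an FPKM of 40.1 and 28.8 in WT against 35.1 and 20.5 in CD274-null. Nop56 and Nop58, paralogous scaffolds of the same particle, had 114 and 59.4 in WT against 95.9 and 98.6 in CD274-null, and 146 and 79.4 against 115 and 82.3, in that order. The Nop56 values of CD274-null thus lay close together inside the WT range, while those of Nop58 differed between the libraries of both genotypes. In box H/ACA particles, which carry the pseudouridine synthase encoded by Dkc1, Nhp2 had 117 and 79.6 in WT against 107 and 71.6 in CD274-null. Gar1 had 49.0 and 29.8 in WT against 38.0 and 29.7 in CD274-null. Dkc1 and Nop10 had log2 fold changes of -0.15 and 0.33, and turned to 0.25 for Dkc1 without WT replicate 1 and to -0.0089 for Nop10 without WT replicate 2. Without WT replicate 1, 6 of the 7 snoRNP genes were higher, and without WT replicate 2 all 7 were lower. Across these 7 genes the adjusted p from limma was at least 0.634.

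Among the 4 genes of RNA polymerase I transcription, Ubtf, which bends rDNA and loads the polymerase, was the highest, with an FPKM of 52.9 and 38.9 in WT against 60.4 and 50.7 in CD274-null. CD274-null replicate 1 was its highest library, and its log2 fold change was 0.28 (SE 0.24, limma adjusted p = 0.627). It was 0.14 with GC correction, 0.064 without WT replicate 2 and 0.50 without WT replicate 1. Polr1a, the largest subunit, had 18.2 and 13.7 in WT against 17.7 and 12.4 in CD274-null, so that the values of the genotypes interleaved. Polr1b, the second subunit, and Rrn3, the initiation factor, had log2 fold changes of 0.10 and -0.18. Polr1b was at 0.58 without WT replicate 1 and at -0.38 without WT replicate 2, and Rrn3 at -0.051 and -0.31. The median difference between the WT libraries was smaller over these 4 genes than in the other roles, at 0.41 on the log2(FPKM + 0.5) scale. For Polr1b, however, it was 0.95, with an FPKM of 24.2 and 12.3 in WT. The roles were not tested against each other.

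Since the whole set moved between libraries, each gene was also set against the set within its own library, as log2(FPKM + 0.5) minus the mean over the 38 genes, a description chosen after the values were seen. These differences add up to 0 over the 38 genes, so lower genes are matched by higher ones by construction, and no test was made. On this scale, 8 genes were lower in both CD274-null libraries than in both WT libraries, where 9.52% of all tested genes set against the same mean were, and 8 were higher, against 19.8% of the tested genes. The 38 genes are centred on this mean and the other genes are not, so nothing is read from these shares. Ddx21 stood apart, at 1.29 and 1.14 above the set in WT and at 0.40 and 0.19 in CD274-null. Utp20 was at -1.57 and -1.83 in WT and at -2.36 and -2.29 in CD274-null, and Ddx10 at -0.69 and -0.25 against -1.005 and -1.18. Nop14, Ncl, Wdr43, Mybbp1a and Rrs1 were the others that were lower. Noc2l was at 1.12 and 0.95 in WT and at 1.41 and 1.69 in CD274-null, Nop10 at 0.89 and 0.89 against 1.32 and 1.42, and Ubtf at 0.09 and 0.33 against 0.56 and 0.74. Nop2, Nop56, Wdr75, Polr1b and Nop16 were higher as well. Pes1 did not separate the groups on this scale. The ratio of Ddx21 to the set was thus similar in libraries of the same genotype, although the level of the set was not. That was not particular to Ddx21, since Nop10, Gar1 and Nop16 lay closer together within each genotype. Ddx21 was singled out for its large difference and is part of the mean it is set against.

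**Figure D4:**
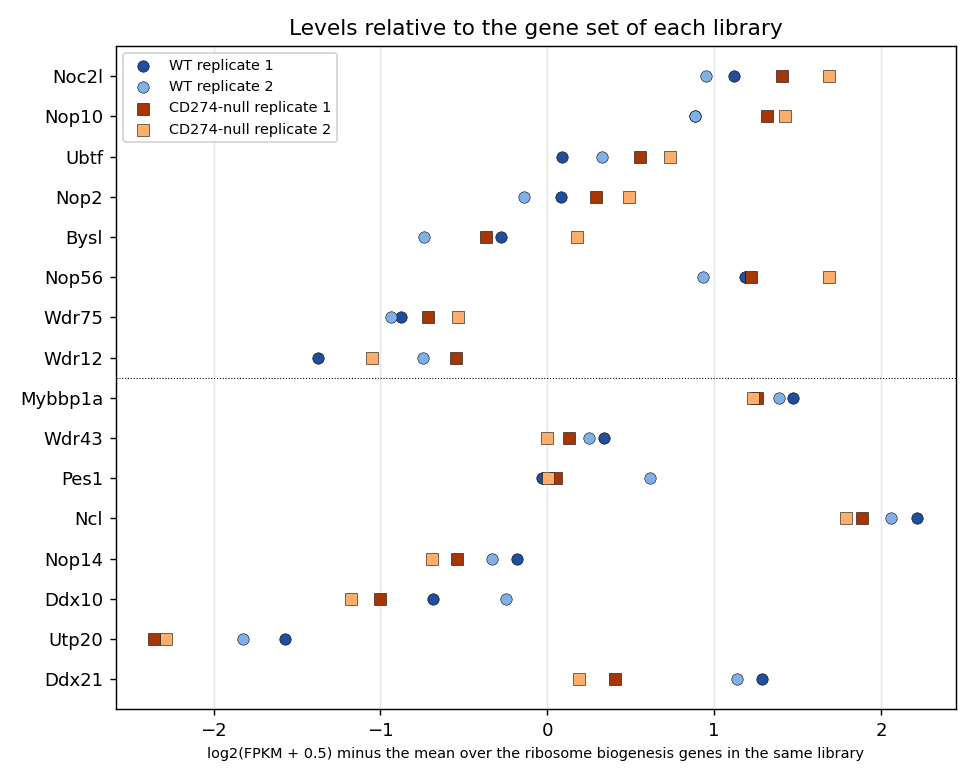
Level of a gene relative to the set, log2(FPKM + 0.5) minus the mean over the 38 genes of the same library, for the 8 genes with the most negative (below the dotted line) and the 8 with the most positive difference between genotypes. For Ddx21 the WT circles lie at 1.29 and 1.14 and the CD274-null squares at 0.40 and 0.19.

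Counting could affect some of these genes. In GENCODE M21, an annotation of GRCm38, the exons of 12 of the 38 overlap exons of a gene on the opposite strand, and of 0 a gene on the same strand. The library kit does not mark strand, so reads of the overlap cannot be told apart. The shared part was 34.2% of the exon bases of Tsr1 (with Srr), 20.9% of Noc2l (with Samd11) and 9.37% of Bysl (with Ccnd3), and at most 5.33% in the other 9 genes. Ddx21, Utp20, Ddx10, Ncl and Ubtf have no such overlap, and Pes1 shares 4.72%.

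Promoters of these genes were read from RefSeq for GRCm38.p6, as the 250 bases before and the 50 bases from each start site, with 41 windows for 33 of the 38 genes. Because the genes moved together between libraries, motifs of factors known for housekeeping and growth genes were searched on both strands, the E-box CACGTG, which MYC and other basic helix-loop-helix proteins bind, and CCGGAA, the core bound by ETS factors, with TCGCGA and the TATA box TATAAA searched as well. CACGTG was present in 7 of the 41 member windows, against 7.15% of all 32851 windows and 10.1% of the 12117 windows of tested genes. CCGGAA was present in 15 windows, against 14.9% and 28.0%, TCGCGA in 4, against 2.499% and 4.89%, and TATAAA in 2, against 13.6% and 7.19%. A match is a description of the letters and not a site. The windows of Utp20, Pes1, Mybbp1a, Wdr43, Tsr1, Nop2 and Rrn3 held CACGTG, and those of Ddx21, Ncl and Nop56 held neither CACGTG nor CCGGAA. Myc, the best known of the E-box factors, had an FPKM of 92.7 and 67.1 in WT against 94.7 and 114 in CD274-null (log2 fold change 0.40, SE 0.25, limma adjusted p = 0.514). Myc was thus higher in replicate 1 than in replicate 2 in WT, as all 38 genes were, and lower in CD274-null, where 36 of the 38 were higher, and its part in the levels of the 38 genes was not tested.

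The windows are shown for the 4 genes whose groups did not overlap, for Noc2l as the gene with the largest positive difference and for Rrn3 as the member with CACGTG at 2 positions. All are written 5′ to 3′ on the strand of the gene, with CACGTG and CCGGAA (or its reverse complement) in capitals. They lie at chr10:62602249-62602548 (minus strand, Ddx21), chr9:53248063-53248362 (minus, Ddx10), chr10:88826765-88827064 (minus, Utp20), chr11:3963725-3964024 (plus, Pes1), chr4:156235765-156236064 (plus, Noc2l) and chr16:13780449-13780748 (plus, Rrn3). In Ddx10 the capitals are CCGGAA on both strands, sharing bases. The CACGTG of Pes1 begins 3 bases and that of Utp20 38 bases into the transcript, counting the start site as 1, and those of Rrn3 begin 215 and 48 bases before it.
Ddx21: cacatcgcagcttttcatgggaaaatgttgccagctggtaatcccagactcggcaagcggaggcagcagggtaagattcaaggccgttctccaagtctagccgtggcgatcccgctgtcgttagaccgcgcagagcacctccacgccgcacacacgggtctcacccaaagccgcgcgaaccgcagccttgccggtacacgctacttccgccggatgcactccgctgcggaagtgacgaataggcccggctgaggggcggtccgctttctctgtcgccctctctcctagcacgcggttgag
Ddx10: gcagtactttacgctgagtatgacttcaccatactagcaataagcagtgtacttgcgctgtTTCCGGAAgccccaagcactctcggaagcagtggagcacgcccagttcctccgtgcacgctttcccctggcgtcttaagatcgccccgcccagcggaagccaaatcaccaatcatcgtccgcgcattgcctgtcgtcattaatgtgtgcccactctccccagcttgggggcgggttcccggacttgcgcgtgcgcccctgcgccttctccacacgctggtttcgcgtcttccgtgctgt
Utp20: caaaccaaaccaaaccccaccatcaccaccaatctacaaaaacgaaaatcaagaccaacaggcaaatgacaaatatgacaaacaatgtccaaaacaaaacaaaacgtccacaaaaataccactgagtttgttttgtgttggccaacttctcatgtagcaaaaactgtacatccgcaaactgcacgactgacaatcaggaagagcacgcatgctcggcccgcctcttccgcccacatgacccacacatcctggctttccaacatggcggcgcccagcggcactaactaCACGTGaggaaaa
Pes1: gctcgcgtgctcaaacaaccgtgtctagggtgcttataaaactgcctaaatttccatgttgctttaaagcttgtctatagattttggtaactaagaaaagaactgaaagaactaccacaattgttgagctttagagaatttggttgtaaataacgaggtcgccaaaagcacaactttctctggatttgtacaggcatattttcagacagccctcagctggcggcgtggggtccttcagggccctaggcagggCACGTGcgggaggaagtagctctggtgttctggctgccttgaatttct
Noc2l: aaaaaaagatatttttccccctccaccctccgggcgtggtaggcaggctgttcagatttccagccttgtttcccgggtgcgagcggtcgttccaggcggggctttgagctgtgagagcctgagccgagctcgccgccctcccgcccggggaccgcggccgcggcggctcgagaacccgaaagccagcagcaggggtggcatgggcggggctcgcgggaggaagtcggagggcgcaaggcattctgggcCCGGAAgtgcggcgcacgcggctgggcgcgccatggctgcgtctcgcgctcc
Rrn3: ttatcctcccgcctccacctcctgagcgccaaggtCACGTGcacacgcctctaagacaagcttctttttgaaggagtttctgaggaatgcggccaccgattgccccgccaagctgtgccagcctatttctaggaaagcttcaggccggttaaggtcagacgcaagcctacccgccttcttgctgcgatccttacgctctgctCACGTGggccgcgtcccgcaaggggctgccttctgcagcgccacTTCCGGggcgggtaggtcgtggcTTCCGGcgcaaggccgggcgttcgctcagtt

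The rest of the pathway was taken from a hand-written list of 152 further ribosome biogenesis genes, of which 151 were found and tested. Of these, 44 were higher and 107 lower by their fitted value (median log2 fold change -0.14), and 1 was a candidate, against 3.63% of all tested genes. The count of higher genes was 72 without WT replicate 1 and 79 without CD274-null replicate 2. It was 29 without WT replicate 2 and 30 without CD274-null replicate 1. In that order the medians were -0.027, 0.016, -0.27 and -0.30, against -0.016, 0.083, 0.048 and -0.058 over all tested genes. Exosc8, a subunit of the exosome that trims rRNA, had an FPKM of 55.8 and 49.2 in WT against 88.8 and 85.8 in CD274-null, with little spread within a genotype (log2 fold change 0.73, SE 0.20, unadjusted p = 0.00995, limma adjusted p = 0.275). Its p lay just under the cut-off of 0.01, and 0 of the 151 genes were candidates with voom, without moderation, with 5 other settings or on leaving out WT replicate 1, CD274-null replicate 1 or CD274-null replicate 2. The largest falls by fitted value were those of Pno1 and Rrp15, small and large subunit factors, at -0.96 and -0.96 on the log2 scale, and of Twistnb, a subunit of RNA polymerase I, with -0.76, and none passed the test. With each library left out they ran from -1.44 to -0.49 for Pno1, from -1.30 to -0.62 for Rrp15 and from -1.09 to -0.42 for Twistnb. For Pno1, Rrp15 and Twistnb the groups did not overlap, as in 34 of the 151 genes with lower and in 13 with higher CD274-null values, next to 21.8% and 25.6% of all tested genes. After Exosc8, the largest positive values were 0.52 for Krr1 and 0.52 for Ddx31, without passing the test. The groups overlapped for Krr1, which was at 0.064 without WT replicate 1 and at 0.98 without WT replicate 2. With each library left out, Ddx31 ran from 0.41 to 0.63 and Exosc8 from 0.64 to 0.82. The difference between the WT libraries was smaller than in the 38 genes. WT replicate 1 was above replicate 2 for 122 of the 151, by more than 1.5-fold for 25, with a median of 0.26, and CD274-null replicate 1 was above replicate 2 for 140 with a median of 0.28. Among the 9 tested genes of snoRNP assembly the WT median was 0.67, and among the 53 of the small subunit 0.25.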

How the data were processed

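RNA was sequenced in 4 libraries, 2 WT and 2 CD274-null, assigned to groups by their titles. Per the labels it came from FACS-sorted cells, while the study's sequencing methods name tissue as the source. FPKM values, 1 for each gene in each library and on a linear scale, were deposited. Per the methods and the labels, TruSeq v2 libraries were read on a HiSeq2500, CASAVA 1.8.2 is named, and reads were aligned to GRCm38 with TopHat2 2.0.12; the program, gene lengths and strand setting behind FPKM are not given in the sources used here.

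Genes were named from RefSeq (GRCm38.p6), with a symbol for 25275 of 27179. FPKM was compared as log2(FPKM + 0.5) by limma 3.58.1 (R 4.3.3; a linear model without covariates, moderated with a trend) for the 13230 genes whose mean FPKM reached 0.5, with Benjamini-Hochberg adjustment. This scale understates changes of low genes. Whole reads (tolerance 0.002) were recovered from the FPKM steps, as the smallest whole numbers with the observed ratios, for 100% of 17083 genes above 0 in at least 2 libraries, so they are lower bounds. The fit and the recovery were tested on simulated data. The members, their roles and the further lists were chosen with earlier results of these data known. Named genes are candidates, the 10 members with the largest absolute log2 fold change, the highest and lowest member of each role, the Nop56, Nop58 and Ddx paralogs, and, of the further genes, candidates and the 3 largest changes in each direction. Alternatives were a pseudocount of 1 or 0.1, no filter or a mean FPKM of at least 5, equal quantiles or medians, no trend, no moderation, the replicate block, GC correction (loess, span 0.3), voom and leaving out each library. Motifs and overlaps used Python 3.11.15.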

Additional observations from a re-analysis of the deposited data

How the results depend on the processing

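With 2 libraries per genotype limma takes much of its variance estimate from other genes, and a lone library is assumed to vary like the rest. Of 19 named members, 19 kept their direction under every alternative that used all libraries. Part of this could not come out otherwise. Changing the filter, trend or moderation, or adding the replicate block, returned the same fold changes, so a direction could not reverse there. The fold changes did move with the pseudocount, equalized libraries, GC correction and voom, without a reversal. With each library left out, 9 kept their direction, the exceptions being Polr1a (-0.34 to 0.16), Fbl (-0.71 to 0.046), Nop56 (-0.23 to 0.71), Nop58 (-0.59 to 0.29), Nhp2 (-0.43 to 0.15), Gar1 (-0.54 to 0.17), Noc2l (-0.061 to 0.78), Npm1 (-0.40 to 0.10), Nolc1 (-0.45 to 0.38) and Mybbp1a (-0.72 to 0.038). The 9 that kept it were Ddx21 (-1.48 to -0.66), Utp20 (-1.24 to -0.31), Ddx10 (-1.08 to -0.47), Nop14 (-0.93 to -0.098), Ncl (-0.87 to -0.034), Wdr43 (-0.77 to -0.0053), Pes1 (-0.66 to -0.18), Ddx18 (-0.43 to -0.11) and Ubtf (0.064 to 0.50). With a library left out, candidates among all tested genes numbered 147 to 634, among the 38 members 0 to 1 (Ddx21) and among the further pathway genes 0 to 1; members higher in CD274-null numbered 2 to 27 and their median log2 fold change was -0.44 to 0.15. With all libraries these last values were 10 to 11 and -0.17 to -0.13. Candidates among all tested genes were 480, 316 higher and 164 lower. Without moderation they were 170. With equal quantiles 253 were higher and 210 lower, with equal medians 247 and 200, and with GC correction 180 and 142. Fits with GC correction, also that with the replicate block, tested the 11435 genes with a GC content and not all 13230. Their counts are therefore over fewer genes. Exosc8 was no longer a candidate, leaving 0 among the further genes, with a pseudocount of 0.1, a mean FPKM of at least 5, equal quantiles, equal medians, no trend, no moderation and voom. The causes were not tested. The replicate numbers do not pair the libraries by any label, and the deviations of same-numbered libraries had a correlation of -0.02 over all tested genes. With the replicate block there were 526 candidates, 1 member (Ddx21, log2 fold change -1.07, adjusted p = 0.170 from limma) and 2 further genes; with GC correction and the replicate block there were 297, 1 (Ddx21, -1.01, adjusted p = 0.324 from limma) and 2. With GC correction the log2 fold changes of 7 named members moved by over 1.5 times, to 0.14 for Ubtf, 0.19 for Noc2l, -0.40 for Gar1, -0.28 for Nhp2, -0.087 for Nolc1, -0.0082 for Nop58, -0.0040 for Npm1. Each member had at least 211 recovered reads in each library.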
